A study of Homo sapiens with 34 samples.

Results

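Genes of cell division, DNA replication and DNA repair were followed through the m6Am peak lists of HEK293T cells. The members were the peaks whose gene name belongs to the CDK, cyclin A to L, CDC, CENP, KIF, MCM, ORC, GINS, AURK, BUB, RAD, FANC, XRCC, ERCC, MSH, RFC or CEP families or to the DNA polymerase genes that start with POLA, POLD, POLE, POLH, POLK or POLQ, together with PRR11. They numbered 31 of 1652 peaks in the list of wild-type cells, 4 of 390 peaks in the hypoxia list and 1 of 74 peaks in the heat shock list. Across the lists these were 36 peaks with 33 distinct gene names.

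HEK293T cells are an established human line from embryonic kidney, and m6Am is the N6-methylated form of the 2′-O-methylated adenosine that can follow the m7G cap of an mRNA. The series holds 34 libraries of this line. Wild-type cells gave 2 libraries each of input RNA, of the m7G-IP of capped 5′ ends, and of the m6A-IP without and with prior treatment by the demethylase FTO, called FTO (−) and FTO (+), and also 1 CAGE library. PCIF1-KO cells, in which the enzyme that writes m6Am is knocked out, gave 1 library of each kind but CAGE. Heat shock cells (43 °C for 2 h, then 6 h of recovery), hypoxia cells (1% oxygen for 24 h) and untreated cells each gave 2 libraries of every immunoprecipitation and 1 of input RNA. The untreated libraries served both stresses. The list of wild-type cells holds their m6Am peaks. The stress lists hold only m6Am peaks that the authors found to differ from untreated cells, so a peak missing from them is not a peak missing from stressed cells. The counts are of the peaks in the lists used here, and any others were not analysed here. A line gives the outer span of a peak in hg19, introns included, and the name of a gene, but neither its strand nor values by replicate. The stress lists also carry a fold change against untreated cells, the authors' own comparison, which was not used. Depth and error are therefore unknown for each peak, no difference between conditions could be tested, and counts below are descriptions. The material is bulk RNA, so fewer cells in a cell cycle phase and less RNA per cell cannot be told apart.

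Cells copy their DNA once per division. Licensing factors load the MCM helicase at origins, GINS activates it, and DNA polymerases extend the new strands. Cyclins with their kinases and the CDC25 phosphatases drive the passage between phases, and kinetochores, motor kinesins and the spindle checkpoint then distribute the chromosomes, which the anaphase-promoting complex releases. Many of these genes are transcribed only in certain phases, through E2F sites or through CHR elements that often lie close to CCAAT boxes. m6Am is placed by PCIF1 on capped transcripts that begin with A, so the first transcribed base decides which transcripts can carry it.

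The family names and the label were not the same set. Of the 31 members in HEK293T cells, 7 have known roles elsewhere: CDC73 is a subunit of the PAF1 transcription complex, CDC42EP4 an effector of the GTPase CDC42, KIF3C part of a transport kinesin, KIF27 a kinesin of motile cilia, CEP41 a ciliary protein, and CDK16 and CDK18 are PCTAIRE kinases. In the hypoxia list 2 of the 4 members were of this kind, the transport kinesin KIF3B and CCNL1, the cyclin L of splicing kinases. The other 24 members in HEK293T cells were KIF14, CENPF, CCND1, CCND2, FANCI, GINS3, CDC27, PRR11, BUB1, ERCC3, ORC4, POLE4, GINS1, CDC25B, CEP63, CDC25C, KIF2A, XRCC4, CENPQ, CEP78, CDK20, CENPP, CENPI and POLA1.

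The first bases of the annotated transcripts were read inside these peaks. Transcripts can start at other bases than the annotated one, and the starts used in these cells are not in the lists, so an annotated A does not place the m6Am and its absence does not exclude one. Below are 12 members of the role lists described later, taken in list order among those with a transcript that begins with A inside the peak, followed by PRR11 and the members of the stress lists, without CENPP, whose spans hold no CENPP TSS. Each line holds 30 bases of GRCh37 on the transcribed strand around 1 annotated transcription start site (TSS), the one with A and the most transcripts (for CDC25C, the one with the most transcripts). Capitals mark the first base of the annotated transcript and the 2 bases before it.
GINS1: tggcgctgtaggaCTAgaacgaaaggagtg
GINS3: ctgctctaaatctGCAgacttgatcgattg
POLE4: gccgcatgcgcgcGCAcagtcggcggccgc
CDC25B: gtggcagctgcaaCTAgaggcttccctggc
CCND1: agtcctggagcctCCAgagggctgtcggcg
CCND2: ttgcgtcaccgctTCAgagcggagaagagc
CDC27: gtcgctggtgagtTTAaatgagcaggggct
BUB1: gcggctgcgcgggGTAttcgaatcggcggc
CENPI: aattccggaggcgGCAttcggtggtcagag
KIF2A: ggtgcgggccctcCCActctaccccgcgcc
KIF14: taactgtctgccaAAAtgtcattacacagt
XRCC4: gtagctgatactcTCAttggttgcaaaacc
PRR11: ccctgacaaggatTTAattttgaatttttc
CEP78: gcaccgttccacgGCAccgcccaccggctt
KIF3B: aggaagtgagcggCCActgtctctccccat
CCNL1: cggctcgctaagaCTAtggcgtccgggcct
CDC25C: gagggagggacggTTGaggtgcccgccccg
Neither of the 2 annotated CDC25C TSSs inside the peak is at an A. In POLE4, GINS3, CCND1, CCND2, CENPI, KIF2A, XRCC4, CEP78 and KIF3B the A stands in the BCA context (B is C, G or T). For KIF14 the only TSS inside the span is an internal one, 2011 bp from the 5′ end of the span, and the TSS of its canonical transcript, at a CCA, lies 17 bp outside. In KIF14 and CCNL1 the marked A is also the first base of the ATG at which the canonical coding sequence begins. These annotated starts thus coincide with a translation start and may not be starts of capped RNA. The canonical CCNL1 TSS, at a TTA, lies inside the span too.

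Of the 31 member peaks, 29 (93.5%) included an annotated TSS of the named gene, beside 92.6% of the 1546 HEK293T peaks that could be matched to a gene. The exceptions were CENPQ, whose span starts 13 bp after its only annotated TSS, and CENPP. The 5′ end of the span was on an annotated TSS in 7 members (22.6%, against 26.5% of all matched peaks) and within 100 bp of one in 26 (83.9%, against 80.7%). A TSS at an A lay in 22 of 31 spans (71%), against 75% over all matched peaks, and a TSS in a BCA context in 14 (45.2%), against 54.5%. The 22 include KIF14, whose only such TSS is the A of the ATG described above. The 9 spans with no TSS at an A were those of CDK18, ORC4, KIF3C, CDC25C, KIF27, POLA1 and CDK16, and the spans of CENPQ and CENPP, which hold no TSS of their gene.

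Counted over TSSs, 56 of the 190 annotated TSSs in member spans (29.5%) were at an A and 83 (43.7%) at a G. Over all HEK293T peaks the share at an A was 35.2% of 7370 TSSs, over all protein-coding genes 32.5% of 146299, and over the protein-coding genes of the same families 29.1% of 2867. The shares over genes count every annotated TSS, with or without a peak, whereas the shares over peaks count only TSSs inside spans. At an A the members' share was below that of all peaks and close to that of their families, counted in this unlike way. The share at a G was 39.2% over all HEK293T peaks, 36.2% over all protein-coding genes and 38.1% over the families, each below that of the members. The most frequent context at the members' A was CCA, at 11 TSSs, followed by GCA at 6 and TTA at 5. TSSs of 1 gene share sequence and are not independent of each other.

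**Figure D1:**
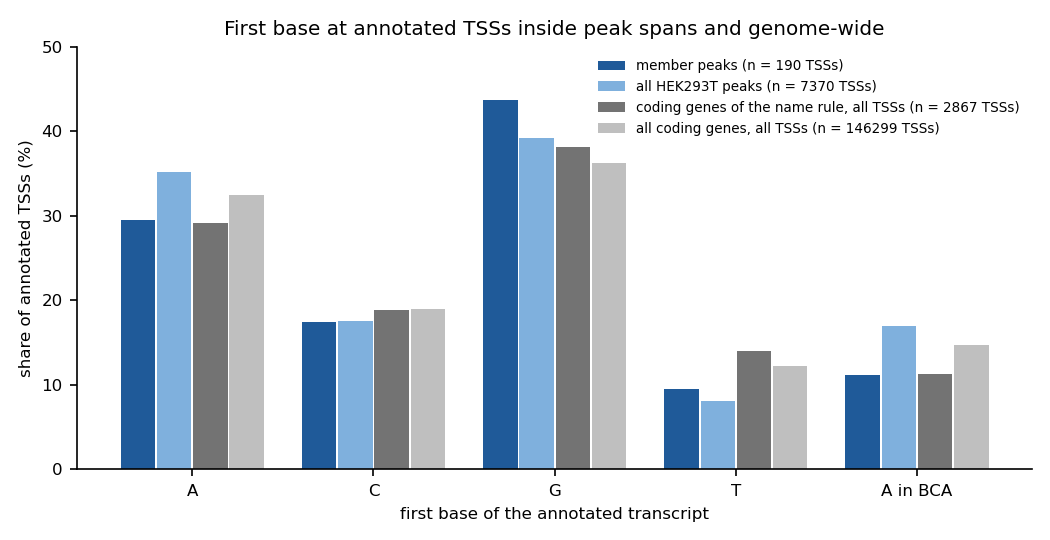
Share of annotated TSSs (%, vertical axis) by first base or by A in the BCA context (horizontal axis), for TSSs inside the 31 member spans, TSSs inside all HEK293T spans, all TSSs of protein-coding genes of the same families and all TSSs of protein-coding genes; bars are single values with no error. A was the first base at 29.5% of TSSs in member spans and at 35.2% in all spans.

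The member spans had a median of 3955 bp, from 151 bp in ORC4 to 41044 bp in KIF2A, and the median of all 1652 peaks was 1228.5 bp. The quartiles were closer, at 331 and 12347 bp in the members and 273 and 9769 bp in all peaks. Spans of at most 1000 bp made up 11 of 31 members (35.5%) and 47.2% of all matched peaks. The exonic part of the spans differed less, with a median of 400 bp against 346 bp. Of the members, 9 spans (29%) exceeded 10000 bp, compared with 24.8% of all matched peaks. These lengths are mostly introns: the XRCC4 span of 33565 bp holds 351 exonic bases, and the PRR11 span of 29625 bp holds 461. Of the 31 spans, 8 touched only the first exon of the canonical transcript, 18 also touched later exons and 5 touched none. At least 1 canonical exon was thus touched by 26 of 31 members, beside 1395 of all 1546 matched peaks. The coding sequence was reached by 23 spans (74.2%), against 62.5% of all matched peaks.

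**Figure D2:**
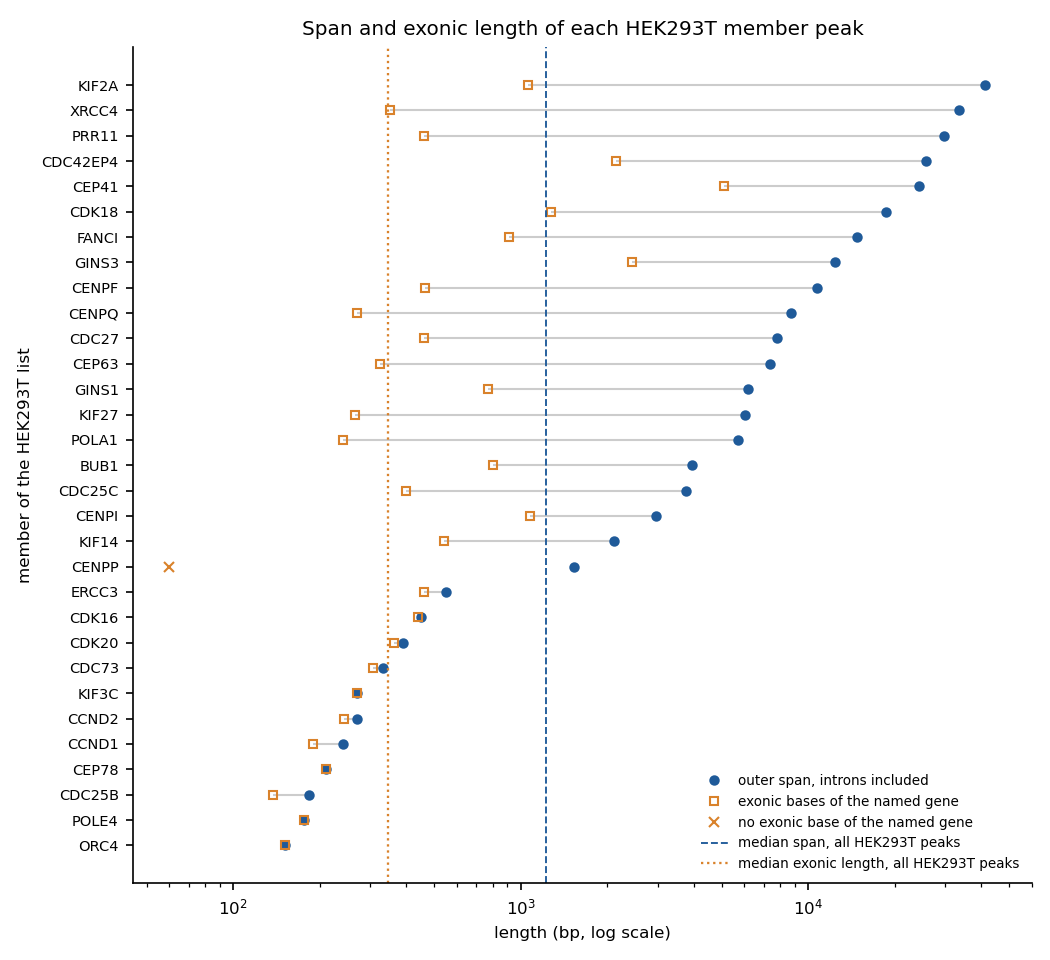
Length in bp (horizontal axis, log scale) of each member peak in the HEK293T list (vertical axis), as the outer span (filled circles) and as exonic bases of the named gene (open squares; a cross marks 0 bases and has no position on the axis); lines give the medians of all peaks. Span lengths run from 151 to 41044 bp, while the exonic lengths have a median of 400 bp.

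Among the replication genes, GINS1 and GINS3, 2 of the 4 subunits of the GINS complex, had a peak. The GINS1 peak spans chr20:25388319-25394483 (hg19, plus strand), touches exons 1 and 2, and holds 12 annotated TSSs, 4 of them at an A. The GINS3 peak at chr16:58426298-58438644 (plus strand) starts on an annotated TSS and touches all 3 exons of the canonical transcript, with 648 coding bases. None of the 7 MCM genes and none of the 5 licensing and firing factors CDC6, CDT1, CDC45, CDC7 and DBF4 was in a list. ORC4, 1 of 6 subunits of the origin recognition complex, had the shortest member peak, chr2:148779023-148779173 (151 bp). It lies in an ORC4 exon on the minus strand and also in the first exon of MBD5 on the plus strand, and with no strand in the list the 2 genes cannot be told apart.

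Of the replicative polymerases, alpha and epsilon were present. POLA1, the catalytic subunit of polymerase alpha, has a peak at chrX:24711950-24717651 (plus strand) with 5 TSSs, none at an A, and PRIM2, a primase subunit of the same complex, has one of 885 bp. POLE4, an accessory subunit of polymerase epsilon, has a peak of 176 bp at chr2:75185770-75185945 (plus strand) that starts on its canonical TSS, a GCA, and stays within exon 1. None of the 4 polymerase delta genes was in a list. Of the sliding clamp and its loader, 1 of 6 genes had a peak, the clamp PCNA itself.

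Among the cell cycle regulators, the D-type cyclins, which act in G1, had peaks for 2 of 3 genes. The CCND1 peak, chr11:69455873-69456113 (241 bp, plus strand), and the CCND2 peak, chr12:4382902-4383171 (270 bp, plus strand), both lie at exon 1 with the canonical TSS inside, at a CCA and a TCA. None of the 5 A-, B- and E-type cyclins and none of the 5 cell cycle CDKs was in a list; CDK20, a CDK outside that list, had a peak of 391 bp. CDC25B, a phosphatase that activates CDK1, has a peak at chr20:3776892-3777075 (184 bp, plus strand) that covers 119 bases of exon 1 of the canonical transcript. CDC27, a core subunit of the anaphase-promoting complex, has its peak at chr17:45258928-45266705 (minus strand) with 9 TSSs, 2 of them at an A. It was the only one of 14 genes of that complex in the HEK293T list, and ANAPC5 was the only one in the hypoxia list.

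At the chromosomes, BUB1, a kinase of the spindle checkpoint, has a peak at chr2:111431730-111435684 (minus strand) over exons 1 to 3, the only one among 6 checkpoint genes. CENPF, a kinetochore protein of late G2 and mitosis, has a peak of 10692 bp over exons 1 and 2 with a CCA at its canonical TSS. The constitutive centromere network had 3 of 16 genes: CENPI at chrX:100353171-100356123 (plus strand), CENPQ at chr6:49431096-49439798 (plus strand, exons 1 to 4) and, by name only, CENPP, whose span holds no base of the gene. SPC25 and MIS12 were the 2 of 9 outer kinetochore genes with a peak, and SMC1A, STAG2 and SMC4 the 3 of 10 in cohesin and condensin. SMC4 had 2 peaks by name, 1 of 14950 bp with 1 annotated TSS, not at an A, and 1 of 1312 bp with 9, 3 of them at an A. Of 14 mitotic kinesins, 2 had a peak: KIF14, which acts in cytokinesis, at chr1:200587751-200589862 (minus strand), and the microtubule depolymerase KIF2A at chr5:61601989-61643032 (plus strand). PRR11, which has been linked to cell cycle progression, has its peak at chr17:57232860-57262484 (plus strand, exons 1 to 3). That span starts 233 bp upstream of the nearest PRR11 TSS, and SKA2, a spindle and kinetochore gene, starts in the other direction 472 bp away from a PRR11 TSS.

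Among the repair genes, XRCC4, which joins broken ends, has a peak at chr5:82373317-82406881 (plus strand, exons 1 to 3) and was 1 of 7 end-joining genes with one. FANCI of the Fanconi anaemia pathway (1 of 10) has a peak at chr15:89787194-89801940 (plus strand, 14 TSSs inside), and the helicase ERCC3 of nucleotide excision repair (1 of 11) at chr2:128051204-128051752 (minus strand, 9 TSSs inside). None of 11 homologous recombination genes and none of 5 mismatch repair genes was in a list. In centriole duplication 3 of 8 genes were listed, PLK4, SASS6 and CEP63.

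Over all 24 role lists, 29 of 177 genes (16.4%) had a HEK293T peak under their name, and 17 lists had at least 1. The role counts go by the name of the peak and include CENPP, CDC25C and CEP63, whose span ends lay at exons of a neighbour. By family name, 31 of 280 protein-coding genes (11.1%) had one, and of all 20098 protein-coding genes 7.11% did. No peak in any list carried a name of the families MCM (10 protein-coding genes), RAD (20), MSH (6), RFC (5) or AURK (4). The role lists were chosen with earlier results of these data known, and the peak lists hold no expression level, so a gene without m6Am and a gene with too little RNA to be called cannot be told apart.

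**Figure D3:**
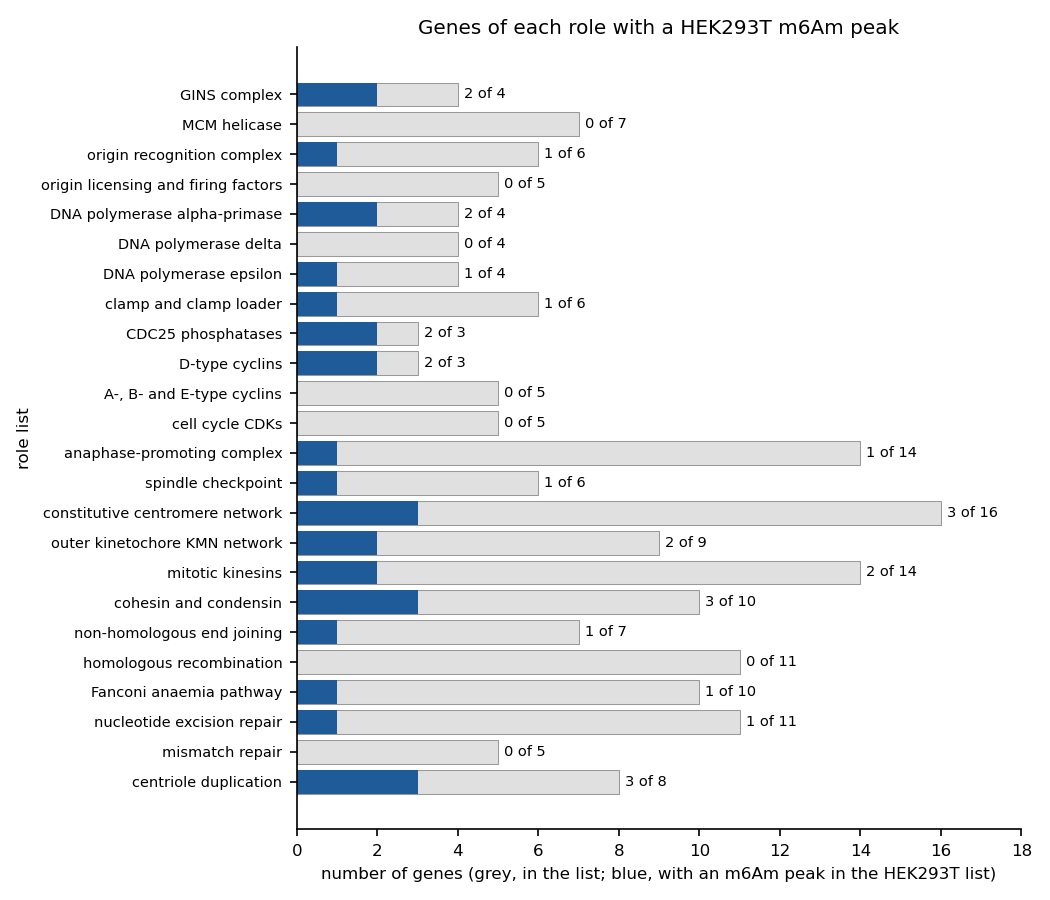
Number of genes (horizontal axis) in each of the 24 role lists (vertical axis), in grey, and of those with a peak in the HEK293T list, in blue. GINS, polymerase alpha, CDC25 and the D-type cyclins have 2 genes with a peak out of 3 or 4, and 7 lists have none.

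Only 3 of the 31 members shared a base with a span of a stress list. Of the HEK293T members, 2 (CEP78 and CENPP) overlapped a hypoxia span, where 13.5% of all HEK293T peaks did, and 1 (CDC25C) overlapped a heat shock span, where 2.54% did. Seen from the other side, 220 of 390 hypoxia peaks (56.4%) and 45 of 74 heat shock peaks (60.8%) overlapped a HEK293T peak, among them 2 of the 4 hypoxia members and the heat shock member. Counts this small do not set the members apart from the list as a whole.

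CEP78, a centrosomal protein, had nearly the same peak in both lists, chr9:80850978-80851188 in HEK293T cells and chr9:80850978-80851186 in hypoxia (plus strand). Both start on the first annotated base of the gene, lie in exon 1 and hold 14 annotated TSSs, 3 of them at an A. KIF3B and CCNL1 were in the hypoxia list and not in the HEK293T list. The KIF3B span, chr20:30865454-30897671 (plus strand), begins exactly at the only annotated TSS of the gene, a CCA, and joins exon 1 to exon 2 across an intron, with 271 exonic bases. The CCNL1 peak, chr3:156877741-156878070 (330 bp, minus strand), lies within annotated exons and holds 9 TSSs, 2 of them at an A. Among the role list genes outside the family names, SASS6 had a peak with the same start and end in the HEK293T and heat shock lists, chr1:100598321-100598651, and ANAPC5 had one of 210 bp in the hypoxia list only.

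For CENPP, CDC25C and CEP63 both ends of the span lay at exons of a neighbour and not both at exons of the gene that named it. This was measured for all matched peaks by asking whether both ends of a span lay in, or within 100 bp of, exons of the named gene or of another protein-coding gene. In HEK293T cells 27 of 31 members had both ends at exons of their own gene, and PRR11 had 1 end more than 100 bp away with no other gene that took both. The remaining 3 members (9.68%) had both ends at exons of another gene and at most 1 end at exons of their own (1 in CEP63, 0 in CDC25C and CENPP), as did 94 of all 1546 matched peaks (6.08%). This question was put after the spans had been seen.

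CENPP is a centromere protein on the plus strand of chromosome 9. Its peaks, chr9:95086350-95087876 in HEK293T cells and chr9:95086320-95087876 in hypoxia, share 1527 bp and end 359 bp before the annotated gene begins, so they hold no base of it. They lie in NOL8, a nucleolar protein gene on the minus strand, begin on an annotated NOL8 TSS and hold 1297 and 1327 exonic NOL8 bases with 19 annotated NOL8 TSSs. CDC25C, a phosphatase that acts at the entry into mitosis, is on the minus strand of chromosome 5. Its HEK293T peak, chr5:137673254-137676998, runs 2954 bp past the 5′ end of the gene, and its heat shock peak, chr5:137673704-137677057, 3013 bp past it. They share 3295 bp, which is 88% of the first and 98.2% of the second. The heat shock span begins on an annotated TSS of FAM53C on the plus strand and touches exons 1 and 2 of its canonical transcript. The TSS of the canonical CDC25C transcript lies outside both spans. CEP63, a centriole protein on the plus strand of chromosome 3, gave its name to chr3:134197517-134204865. The 5′ end of this span on the minus strand is on an annotated TSS of ANAPC13, and the span holds bases of all 3 ANAPC13 exons, 1257 exonic bases in total, against 325 exonic bases of CEP63. ANAPC13 is a subunit of the anaphase-promoting complex and had no peak under its own name. NOL8 and FAM53C had none either.

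The TSSs of these 3 neighbours inside the HEK293T spans were chosen by the same rule, which takes a TSS at an A where there is one. Of the annotated TSSs inside the spans, 7 of 19 in NOL8, 2 of 4 in FAM53C and 2 of 5 in ANAPC13 are at an A. The chosen ones stand in the BCA context.
NOL8: ttgggacacgtgaCCAgaagttaggggctg
FAM53C: gcgaaccgagcgcTCAgagctgctccggcc
ANAPC13: gggggggggcgtgGCAggagcaagcgtctg
Inside the same spans, CENPP and CDC25C have no annotated TSS at an A, and CEP63 has 4 of 9, all of them in the BCA context. Whether the methylated transcript comes from one strand or the other was not tested, as the lists carry no strand.

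**Figure D4:**
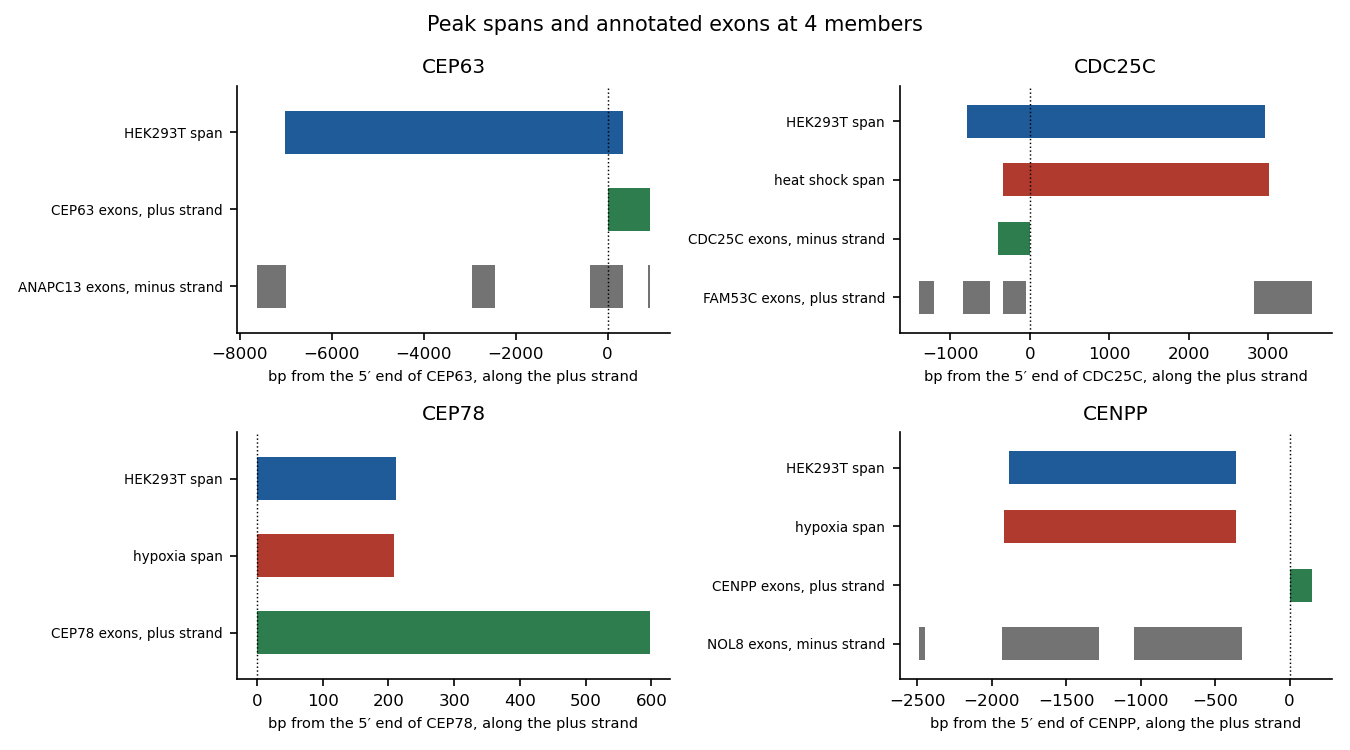
Peak spans (blue, HEK293T; red, stress list) and annotated exons within 600 bp of the HEK293T span (green, named gene; grey, neighbour) at CEP63, CDC25C, CEP78 and CENPP, in bp from the 5′ end of the named gene along the plus strand. The CENPP spans end 359 bp before the gene, while the CEP78 spans start at its first base.

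Neighbours on the other strand were then counted at all members. From the TSSs inside the span, 7 of 31 members (22.6%) had an annotated gene head to head on the other strand within 1000 bp, against 34.1% of all matched peaks. A protein-coding one was there in 4 members (12.9%), against 19.4%: SKA2 beside PRR11, MBD5 beside ORC4, ANAPC13 beside CEP63 and TMEM167A beside XRCC4. TSSs of TMEM167A and XRCC4 lie 45 bp apart. Counted from any annotated TSS of the gene, also outside the span, 14 members (45.2%, against 47.2%) had a neighbour and 10 (32.3%, against 26.4%) a protein-coding one. The added ones include NOL8, 317 bp from CENPP, FAM53C, 63 bp from the nearest CDC25C TSS, and CENPB, 32 bp from CDC25B.

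The promoters of the members were then read for cell cycle motifs, from RefSeq (GRCh38.p14), as 250 bases before to 50 after the gene's start. Of the 33 member names 27 were matched, 25 of them in the HEK293T list. The motifs were CCAAT, the CHR element (TTTGAA or TTCGAA), the E2F site (TTTCCCGC, TTTGGCGC, TTTCGCGC or TTTGCCGC) and TATAAA, on either strand. CCAAT was found in 14 of 25 member promoters (56%), in 50.2% of the protein-coding genes of the same families and in 36.6% of all 15288 protein-coding genes. An E2F site was found in 5 of 25 (20%), against 17.7% in the families and 4.49% in all protein-coding genes. The CHR letters were in 5 (20%), against 21.4% and 13.4%, and TATAAA in 2 (8%), against 4.94% and 9.6%. For each motif but TATAAA the members therefore lay closer to their families than to all genes. In the HEK293T list as a whole, 39.9% of promoters had CCAAT, 11.8% the CHR letters and 6.07% an E2F site.

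**Figure D5:**
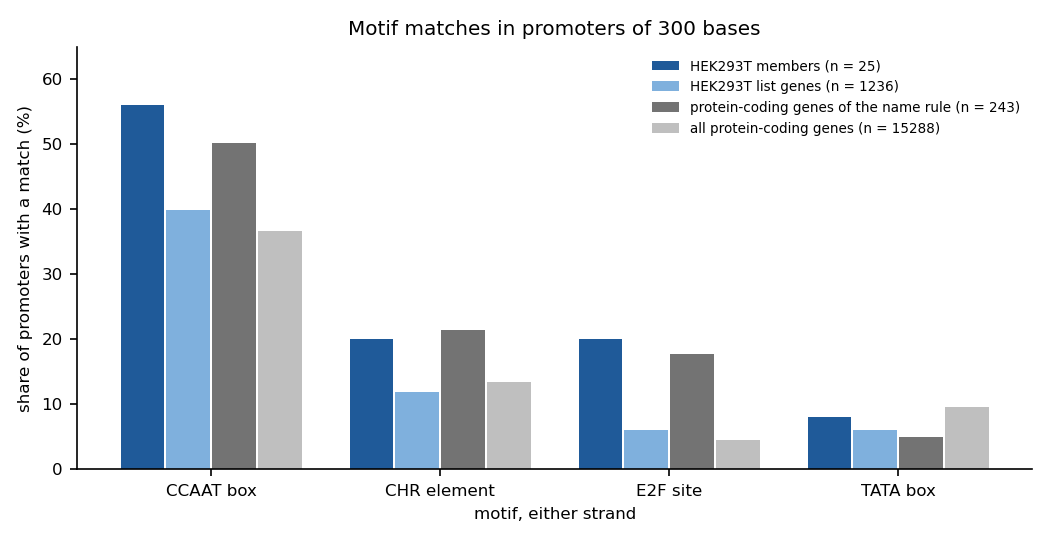
Share of promoters with at least 1 match (%, vertical axis) for each motif (horizontal axis), in HEK293T members, all genes of the HEK293T list, protein-coding genes of the same families and all protein-coding genes; bars are single values with no error. E2F letters are in 20% of member promoters and in 4.49% of all protein-coding promoters.

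All 5 members with the CHR letters also had CCAAT: BUB1, CENPF, KIF14, PRR11 and CDC42EP4. Both motifs occurred together in 5.62% of all protein-coding promoters, and their joint share in the families was not counted. The E2F letters were in GINS1, GINS3, POLA1, POLE4 and CEP63. None of the 4 motifs was found in 9 of 25 members (CDC25B, CDC25C, CDK20, CENPI, CENPP, ERCC3, KIF2A, KIF3C and ORC4), against 49.1% of all protein-coding promoters. The windows below are 30 bases each of GRCh38.p14 on the gene's strand, with the CHR letters of 3 mitotic genes and of PRR11 and the E2F letters of GINS1, GINS3 and POLE4 in capitals; letters of the other strand are shown as they read on the gene's strand.
BUB1: ctgcgcggggtaTTCGAAtcggcggcggct
KIF14: gcggggcgcccaTTCAAAttgcggccttct
CENPF: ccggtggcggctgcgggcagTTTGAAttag
PRR11: caaggatttaatTTTGAAtttttctttatg
GINS1: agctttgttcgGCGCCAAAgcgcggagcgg
GINS3: cgtccccgggcGCGGGAAAcgagtttcaat
POLE4: ctccagcccgcGCGGGAAAgggcctgcgcc
In BUB1 and in KIF14 the CHR letters begin at the base directly after the RefSeq start, which is an A in both. In BUB1 this A is the TSS printed above, inside the peak, while the KIF14 start is the canonical TSS outside its span. A match is a description of letters in a window and not a measured site.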

How the data were processed

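The authors used R2 reads, which they trimmed (Trim Galore 0.6.6, cutadapt 1.18) and placed on hg19 (HISAT2 2.1.0). Peaks from exomePeak and MACS2 2.1.1 were kept if an m7G-IP peak lay over them and their enrichment was higher in the m6A-IP than in the m7G-IP. The authors took a peak as m6Am where the FTO (−) to FTO (+) ratio was over 2, and made the stress lists with exomePeak and DESeq2 from peaks that differed over 2-fold from untreated cells. The deposited stress lists also hold the authors' fold change of stressed against untreated cells, which was not used, so no direction is given. No library has values of its own in the lists. One PCIF1-KO library was grouped by its title as m7G-IP although its description names an m6A-IP.

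Positions were read as 1-based, because 244 HEK293T starts matched an exon start as given and 20 did when shifted by 1. Names were matched to Gencode 44 on GRCh37 (1546 of 1652 HEK293T peaks, 364 of 390 hypoxia peaks, 63 of 74 heat shock peaks). Overlap was counted from 1 bp. No test was run. Members and role lists were chosen with earlier results of these data known. Every member is named. Full positions are given for members of the stress lists or role lists and for PRR11, and sequences for PRR11, 12 role list members and the stress list members with a TSS in their span. The positions of CEP78 and SASS6 in several lists, the promoter windows and the neighbouring genes were chosen after their values were seen. The functions were tested on simulated data. The tools were samtools 1.23.1, Matplotlib 3.10.9, pyfaidx 0.9.0.4 and Python 3.11.15.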

Additional observations from a re-analysis of the deposited data

How the results depend on the processing

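Of 41 alternatives to 11 counts and medians, 32 stayed within 1.5 times the value given. With spans of at most 1000 bp only, the HEK293T members fell to 11, those that overlapped a hypoxia span to 1 and those that overlapped a heat shock span to 0, since most member spans are longer. The hypoxia overlap was also 1 where exonic parts of the named gene had to overlap, because the CENPP span holds no CENPP exon. An alternative chosen after seeing the data left out the members whose span ends lay at exons of another gene, which left 1 overlap with hypoxia (CEP78) and 0 with heat shock. A TSS in the BCA context was found in 14 members, and a protein-coding divergent neighbour in 4. Counted from any annotated TSS of the gene, also chosen after seeing the data, a divergent neighbour was found in 14, since more TSSs were searched. The count of 3 members at exons of another gene was the same with the ends in an exon or within 50 or 300 bp of one. No paired analysis was possible because the lists hold no replicate values. Depth, strand and expression are not in the lists, so the precision of a peak's ends is unknown.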
